A study of Homo sapiens with 6 samples.

Results

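The ERK feedback genes described here are 10 genes that encode inhibitors of the Ras-ERK pathway, the dual-specificity phosphatases DUSP1, DUSP4, DUSP5, DUSP6 and DUSP7, the Sprouty proteins SPRY1, SPRY2 and SPRY4, and the Sprouty-related proteins SPRED1 and SPRED2. They were chosen by name, as the rows of the count table with these symbols, and all 10 were found among the 58735 genes of the table. They were read as the transcriptional output of the pathway after loss of DAB2IP, which encodes a Ras GTPase-activating protein (RasGAP). Transcripts were measured by RNA-Seq in MCF10A, a nonmalignant breast epithelial cell line of human origin, 48 hours after transfection. Cells of the 3 siControl libraries received the nontargeting control pool, and cells of the 3 siDAB2IP libraries received siRNA against DAB2IP. The siControl cells are labelled wild type and the others DAB2IP knockdown. Both groups grew in the same medium, with 20 ng/mL epidermal growth factor (EGF, an activator of ERK), 10 μg/mL insulin, 0.5 μg/mL hydrocortisone, 100 ng/mL cholera toxin, 5% horse serum and antibiotics. A single siRNA reagent was used for the knockdown, so that its effects through DAB2IP and through other transcripts cannot be told apart, and the labels do not say whether the replicates came from separate cultures, so p-values measure the spread between these libraries.

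Growth factor receptors activate Ras, which passes the signal through RAF and MEK kinases to the kinase ERK, and RasGAPs return Ras to its inactive state. Active ERK enters the nucleus and raises the transcription of its own inhibitors. DUSP proteins of this class remove the activating phosphates from ERK and, for some of them, from the related kinases p38 and JNK. Sprouty proteins act upstream, between the receptor and RAF, and SPRED proteins bring the RasGAP neurofibromin to the membrane. The mRNAs of many of these genes are short-lived, so their levels are widely used as a readout of recent ERK activity.

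The libraries held between 16353783 and 21916062 counts, which puts the limit that a count of 0 allows at 0.137 to 0.183 CPM (counts scaled to library size), for counting error alone. The members had between 64 counts (SPRY1, siControl replicate 1) and 7234 counts (DUSP1, siControl replicate 2) in a library, and all 10 were among the 15430 genes that passed the filter on low counts. DAB2IP was at 103, 94.2 and 77.4 CPM in siControl replicates 1, 2 and 3, and at 27.5, 25.6 and 22.4 CPM in the siDAB2IP replicates, or 27.5% of the control level in the fit. Markers of basal mammary epithelium were high in both groups, with KRT5 at 816 FPKM (a level corrected for gene length and library size) on average in siControl, and CDKN2A, which MCF10A cells have lost, was at no more than 0.232 CPM in any library. Of the 7 basal markers, 3 fell with the knockdown, and their summed level was 8142 to 10017 CPM in siControl and 4634 to 5654 CPM in siDAB2IP. Of the 5 fibroblast markers 1 rose (COL1A1), with summed levels of 163 to 293 and 146 to 205 CPM, and of the 4 luminal markers 1 rose (FOXA1), with summed levels of 20.7 to 27.2 and 22.3 to 27.3 CPM and PGR at 0 in all 6 libraries. None of the 3 endothelial markers passed, at 11.1 to 16.0 and 7.42 to 11.2 CPM summed, and the 2 leukocyte markers were at 0.325 CPM or less together. The part of these markers in the results below was not tested. In these bulk libraries, a change in the make-up of the culture and a change in RNA per cell cannot be told apart.

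Per length, DUSP1 was by far the most abundant of the 10 transcripts. In the siControl libraries it was at 173 ± 24.4 FPKM (SD, n = 3), above 99.1% of the genes tested and 7.40 times the level of the next member. DUSP4 (23.4 ± 3.17 FPKM), DUSP7 (19.6 ± 0.774 FPKM) and DUSP6 (18.8 ± 2.73 FPKM) followed, and the ranges of neighbors in this order overlapped. SPRY2 was at 10.1 ± 2.10 FPKM, below each of these and above the next genes in every control library. SPRED1, SPRED2 and SPRY4 formed a group of overlapping levels at 5.33 ± 0.530, 4.93 ± 0.116 and 4.81 ± 0.596 FPKM (SD, n = 3 each). DUSP5 (3.49 ± 0.868 FPKM) and SPRY1 (1.20 ± 0.191 FPKM) were the lowest, and SPRY1 stood above only 25.2% of the genes tested. After knockdown the order of the 5 most abundant members was kept, while DUSP5 moved from the ninth to the sixth place, at 7.19 ± 1.46 FPKM.

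With DAB2IP knockdown, the 10 genes did not move as a group. DUSP5 rose to 2.06 times its control level and was the 1 member past the threshold (Benjamini-Hochberg adjusted p under 0.05 over all genes tested, quasi-likelihood test of edgeR), or 1 of 10 against 6.55% of all genes tested that rose (14.2% passed in either direction). None of the 10 fell past the threshold, against 7.65% of all genes, and at an unadjusted p under 0.05, 1 member was lower (DUSP1, against 15.5% of all genes tested) and 4 were higher (DUSP4, DUSP5, DUSP7 and SPRY1, against 14.5%). The median log2 fold change of the members was 0.15 (0.01 for all genes tested), with 6 of 10 positive. For 4 members, all of them DUSP genes, the control and knockdown values were separate, with 3 higher (17.6% of all genes tested) and 1 lower (18.3%), or 35.9% of all genes in either direction. Replicates with the same number were weakly correlated across all genes after subtraction of the group means (0.15 to 0.26). With the replicate number as a block, 2 members rose (DUSP4 and DUSP5, against 9.59% of all genes) and 1 fell (DUSP1, against 11.4% of all genes). The same genes were called with DESeq2 (7.37% of all genes rose and 9.23% fell), without the filter on low counts (4.21% and 5.72%) and without replicate 3 of both groups (6.83% and 8.41%). Within the numbered pairs, 4 members were higher in all 3 siDAB2IP libraries (27.9% of all genes tested) and 2 were lower in all 3 (28.3%), which is 6 of 10 with a single direction, against 56.2% of all genes tested.

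**Figure D1:**
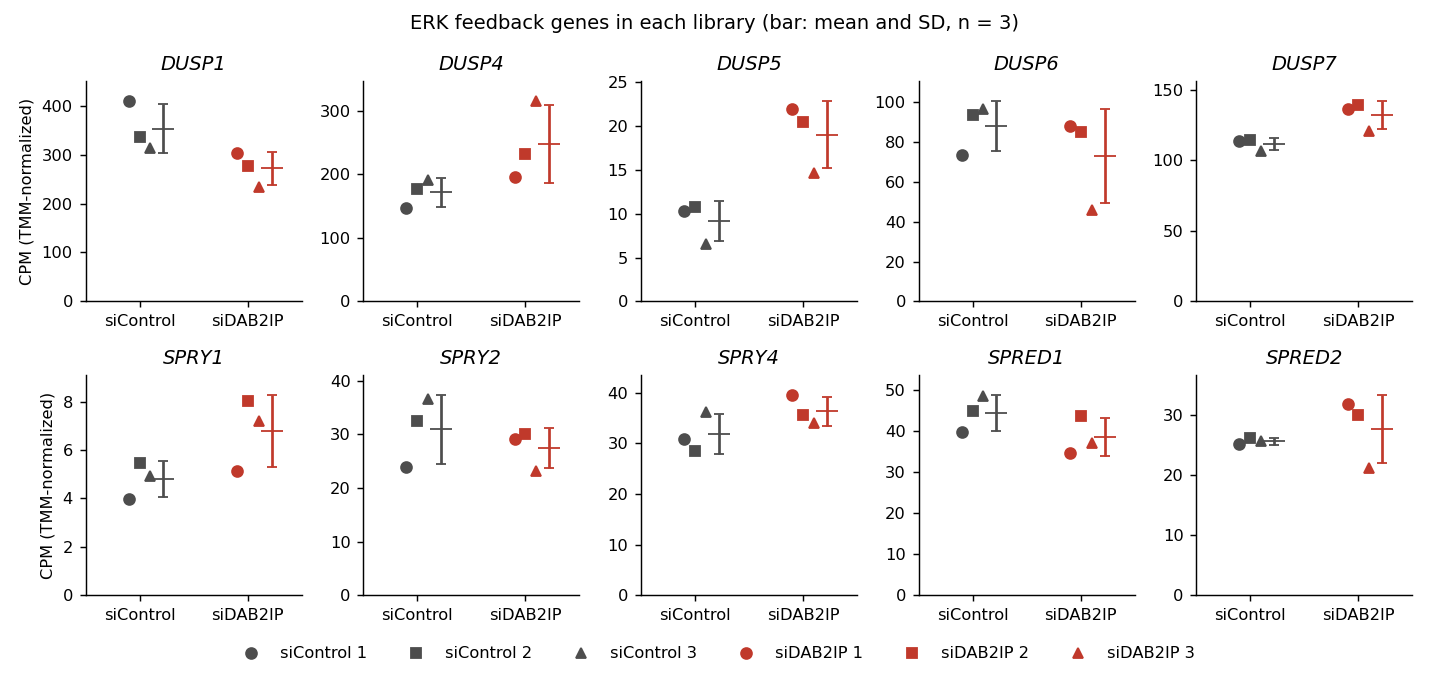
TMM-normalized CPM (y axis, from 0, with a scale of its own for each gene) of the 10 ERK feedback genes in each siControl (gray) and siDAB2IP (red) library, with the replicate number shown by the symbol and the mean and SD of each group beside it (n = 3). The groups do not overlap for DUSP1, DUSP4, DUSP5 and DUSP7, and siDAB2IP replicate 3 is the lowest library for DUSP1, DUSP6, SPRY2 and SPRED2.

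DUSP5 encodes a nuclear phosphatase selective for ERK. It lies on chromosome 10 from 110497838 to 110511544 (GRCh38, plus strand) and no other annotated gene overlaps it. It was at 10.3, 10.7 and 6.58 CPM in siControl replicates 1, 2 and 3, and at 21.9, 20.4 and 14.7 CPM in the siDAB2IP replicates. Replicate 3 was the lowest of each group, and the increase within the numbered pairs was similar, at 1.09, 0.93 and 1.16 on the log2 scale. The log2 fold change was 1.05 (standard error 0.22, 95% interval 0.56 to 1.53, adjusted p = 0.0129 from edgeR), and the gene passed the threshold in all 15 alternatives run, with adjusted p from 2.36e-07 to 0.0415. The smallest came without the filter on low counts, at a log2 fold change no larger (1.03). In that fit adjusted p was also far smaller for DAB2IP at nearly the same change (3.3e-42 against 9.71e-05, both from edgeR). The cause was not tested. On the exact permutation test over libraries p was 0.1, the smallest value that 3 against 3 allow, as for every gene whose groups do not overlap.

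DUSP4 encodes an inducible nuclear phosphatase of ERK and JNK (chromosome 8, 29333064 to 29350668, minus strand). It was at 146, 176 and 192 CPM in siControl and at 196, 231 and 315 CPM in siDAB2IP. The lowest knockdown library was therefore only just above the highest control library, and siDAB2IP replicate 3 was above the others by a wide gap. The log2 fold change of 0.53 (standard error 0.17, 95% interval 0.15 to 0.91) did not pass the threshold (adjusted p = 0.0673 from edgeR). It did with the replicate block (adjusted p = 0.00847 from edgeR), with DESeq2 (adjusted p = 0.0201), without the filter on low counts (adjusted p = 0.000755 from edgeR) and without siDAB2IP replicate 1 (adjusted p = 0.0336 from edgeR, with 4.15% of all genes tested that rose).

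DUSP1 encodes an immediate-early nuclear phosphatase that acts on p38 and JNK as well as on ERK, and that glucocorticoids are also known to induce (chromosome 5, 172768090 to 172771195, minus strand). It went the other way. It was at 410, 336 and 314 CPM in siControl and at 302, 278 and 235 CPM in siDAB2IP, so each knockdown library was below each control library. The log2 fold change was −0.38 (standard error 0.14, 95% interval −0.68 to −0.08, adjusted p = 0.0911 from edgeR). The call changed with the replicate block (adjusted p = 0.0198 from edgeR), with DESeq2 (adjusted p = 0.0492) and without the filter on low counts (adjusted p = 0.0243 from edgeR), and the value stayed between −0.47 and −0.28 across 15 alternatives.

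The cytoplasmic, ERK-selective phosphatases are encoded by DUSP6 (chromosome 12, 89347232 to 89353271, minus strand) and DUSP7 (chromosome 3, 52048919 to 52056550, minus strand). DUSP7 varied least between replicates of the DUSP genes and was at 114, 115 and 107 CPM in siControl and 136, 139 and 121 CPM in siDAB2IP. Its groups did not overlap, with a log2 fold change of 0.24 (standard error 0.10, 95% interval 0.03 to 0.46, adjusted p = 0.119 from edgeR), and it passed the threshold without siDAB2IP replicate 3 (adjusted p = 0.0388 from edgeR, with 7.44% of all genes tested that rose). DUSP6, one of the most used readouts of ERK activity, was at 73.5, 93.9 and 96.8 CPM in siControl and at 88.3, 85.4 and 46.1 CPM in siDAB2IP. The knockdown replicates 1 and 2 lay within the control range, and replicate 3 was the lowest of all 6 libraries, with a log2 ratio to its numbered control of −1.07 (0.27 and −0.14 for the other pairs). The log2 fold change was −0.27 (standard error 0.22, 95% interval −0.75 to 0.22, adjusted p = 0.457 from edgeR), and without replicate 3 of both groups, a comparison chosen after the values were seen, it was 0.050.

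The upstream sequences of DUSP1 and DUSP7 are shown because they were, of the 4 genes whose groups did not overlap, those with an entry in the promoter table (RefSeq, GRCh38.p14, 250 bases before the start site, minus strand, 5′ to 3′). There were 12 such windows for 8 of the 10 members, without DUSP4 and DUSP5. Capitals mark matches, on either strand, to the motifs searched. DUSP1 (chr5:172771196-172771445) held a cyclic AMP response element (CRE) and a TATA box, and DUSP7 (chr3:52056572-52056821) held an NF-κB site.
DUSP1: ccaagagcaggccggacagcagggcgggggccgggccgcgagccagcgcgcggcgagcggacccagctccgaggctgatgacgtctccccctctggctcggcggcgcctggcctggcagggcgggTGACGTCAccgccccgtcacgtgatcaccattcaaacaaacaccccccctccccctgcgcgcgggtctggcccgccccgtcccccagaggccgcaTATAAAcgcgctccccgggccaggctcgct
DUSP7: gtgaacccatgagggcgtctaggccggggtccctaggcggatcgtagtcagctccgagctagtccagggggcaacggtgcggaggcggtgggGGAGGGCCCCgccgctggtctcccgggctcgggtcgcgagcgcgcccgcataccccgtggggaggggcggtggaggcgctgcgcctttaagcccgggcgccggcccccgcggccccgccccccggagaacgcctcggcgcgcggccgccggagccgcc
The CRE (TGACGTCA) lay 125 to 118 bases before the start site of DUSP1 and was found in 1.65% of the 35116 windows of this length, and the TATA box (TATAAA, 10.7% of windows) lay 30 to 25 bases before it. The NF-κB site of DUSP7 lay 158 to 149 bases before its start site, and 9.96% of all windows held one. SPRED2 had the TATA letters in 1 of its windows. The other motifs searched, the ETS site CCGGAAGT (3.42% of windows), the AP-1 site TGANTCA (6.57%), the CArG box (1.16%) and the CIC octamers TGAATGAA (1.40%) and TGAATGGA (0.832%), were in 0 of the 12 windows, which says only that these letters are not in these windows.

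For each of the 5 SPRY and SPRED genes, the control and knockdown values overlapped. SPRY2, the most abundant Sprouty transcript here (chromosome 13, 80335976 to 80340951, minus strand), was at 23.9, 32.4 and 36.5 CPM in siControl and at 29.1, 30.1 and 23.1 CPM in siDAB2IP. The groups overlapped, with a log2 fold change of −0.17 (95% interval −0.55 to 0.20, adjusted p = 0.539 from edgeR), which was 0.065 without replicate 3 of both groups. SPRY4 (chromosome 5, 142310427 to 142326455, minus strand) was at 30.9, 28.5 and 36.3 CPM in siControl and 39.6, 35.6 and 34.0 CPM in siDAB2IP. Its log2 fold change was 0.19 (95% interval −0.08 to 0.47, adjusted p = 0.335 from edgeR). SPRY1 (chromosome 4, 123396795 to 123403760, plus strand), the member with the fewest counts, was at 3.99, 5.48 and 4.93 CPM in siControl and 5.13, 8.03 and 7.19 CPM in siDAB2IP. It was higher in all 3 numbered pairs, but its lowest knockdown value lay inside the control range, and the log2 fold change of 0.49 had a wide interval (0.00018 to 0.99, adjusted p = 0.166 from edgeR).

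SPRED1 (chromosome 15, 38252326 to 38357249, plus strand) was at 39.8, 45.0 and 48.5 CPM in siControl and at 34.7, 43.6 and 37.0 CPM in siDAB2IP, lower in all 3 numbered pairs, with a log2 fold change of −0.21 (95% interval −0.48 to 0.07, adjusted p = 0.292 from edgeR). SPRED2 (chromosome 2, 65310851 to 65432637, minus strand) was nearly constant in siControl, at 25.1, 26.2 and 25.6 CPM, and spread from 21.2 (replicate 3) to 30.0 and 31.9 CPM in siDAB2IP. Its log2 fold change was 0.11 (95% interval −0.23 to 0.45, adjusted p = 0.679 from edgeR). For the 5 genes of both families and for DUSP1, DUSP4, DUSP6 and DUSP7, the threshold was not reached, and the intervals bound the change: none of these 9 intervals extended beyond 0.99 or below −0.75 on the log2 scale. An overlapping annotated gene had on average at most 1.91% of the counts of its member. These are counts assigned to the overlapping gene, so reads dropped or assigned wrongly where genes overlap were not measured.

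**Figure D2:**
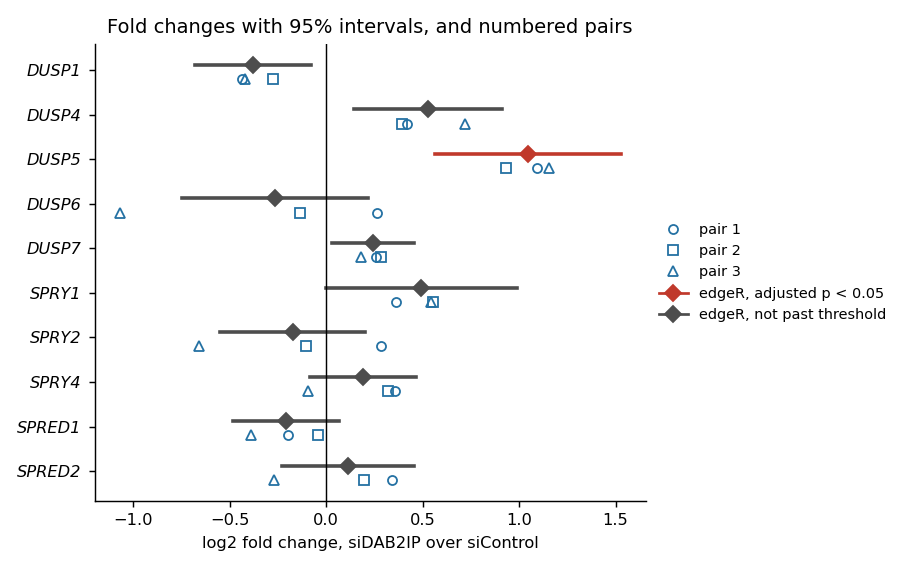
Log2 fold change of siDAB2IP over siControl (x axis) for each ERK feedback gene from edgeR with its 95% interval (diamonds and lines), and below it the log2 ratio of CPM within each numbered pair (open symbols). DUSP5 is the gene past the threshold, at 1.05, and pair 3 is the lowest pair for DUSP6 (−1.07), SPRY2 (−0.66), SPRY4, SPRED1 and SPRED2 (−0.27), and also for DUSP7, but not for DUSP4 (0.72).

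The make-up of the DUSP transcripts within a library is given as shares, with no test. Shares within a family add up to the whole, so a lower share of 1 gene raises the others. They also restate the CPM values above in part, and for CPM the groups of 35.9% of all genes tested did not overlap. DUSP1 made up 72.4 ± 4.17% of the summed FPKM of the 5 DUSP genes in siControl and 62.4 ± 3.24% in siDAB2IP (SD, n = 3), and its share was lower in each knockdown library than in any control. The shares of DUSP4 (9.92 ± 2.09% and 16.1 ± 5.33%), DUSP5 (1.45 ± 0.313% and 3.36 ± 0.443%) and DUSP7 (8.24 ± 0.509% and 10.9 ± 0.311%) were higher in each knockdown library, and that of DUSP6 overlapped (7.99 ± 1.73% and 7.26 ± 1.91%). The sum of the 5 genes was 222 to 260 FPKM in siControl and 194 to 226 FPKM in siDAB2IP, so that the total overlapped between the groups. Among the Sprouty genes, the share of SPRY2 was lower in each knockdown library than in any control, with 62.3 ± 3.84% in siControl and 55.3 ± 2.77% in siDAB2IP, and the summed level of the 3 genes was 13.4 to 18.6 and 14.4 to 17.2 FPKM. The SPRED genes contributed nearly equal parts in siControl, with 51.9 ± 2.24% from SPRED1. In siDAB2IP the SPRED1 share was 46.7 ± 5.88%, from 40.4% (replicate 1) to 52.1% (replicate 3), and the groups overlapped.

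Ratios between 8 pairs of members, which do not depend on the scaling between libraries, were compared with exact permutation tests. For 3 of the 8 pairs the control and knockdown ratios were separate, and in CPM the groups of 35.9% of all genes tested were. Several pairs share a gene, so the ratios are not independent of each other or of the CPM values above. The ratio of DUSP1 to DUSP4 in FPKM was 10.1, 6.84 and 5.89 in siControl and 5.56, 4.31 and 2.68 in siDAB2IP, a difference of −0.89 in the mean log2 ratio. The ratio of DUSP4 to DUSP6 was 1.27, 1.20 and 1.26 in siControl and 1.41, 1.73 and 4.36 in siDAB2IP (difference 0.82), where the controls were almost the same and replicate 3 of the knockdown stood apart. The ratio of SPRY1 to SPRY2 was 0.128, 0.130 and 0.104 in siControl and 0.135, 0.204 and 0.238 in siDAB2IP (difference 0.65). Each of the 3 had p = 0.1 on the two-sided exact test, the smallest possible, and an adjusted p of 0.267 over the 8 pairs, so no ratio passed a threshold. The differences of the other pairs lay between −0.56 (DUSP6 to DUSP7) and 0.29 (SPRY1 to SPRY4).

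**Figure D3:**
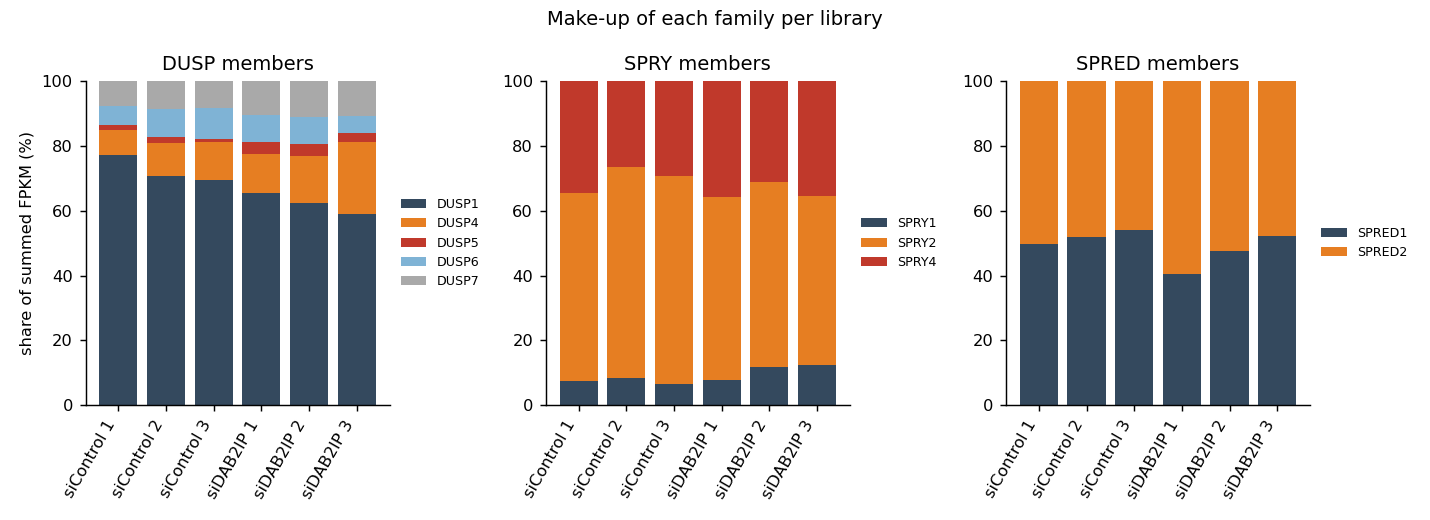
Share of the summed FPKM of the DUSP, SPRY and SPRED members (y axis, %) that each gene contributed in each of the 6 libraries (bars). The DUSP1 share is between 69.3% and 77.1% in the siControl libraries and between 59.1% and 65.6% in the siDAB2IP libraries, and siDAB2IP replicate 3 has the largest DUSP4 share, 22.1%.

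The pattern over the 6 libraries was compared between genes as the root-mean-square (RMS) difference of log2 CPM after subtraction of each gene's mean. Among the members, DUSP7 and SPRY4 were closest (0.147), followed by DUSP7 and SPRED2 (0.148) and by SPRY2 and SPRED1 (0.160). DUSP5 and DUSP6 were farthest apart (0.759). Genes outside the members were far closer, with the nearest at 0.0197 for DUSP7 and 0.0394 for SPRY2. The measure also follows the size of the differences between libraries, so genes that varied little come out close. Of 9436 other genes with a mean of at least 10 CPM, those most like DUSP5 were SLC25A20 (0.148), DHRS3 (0.153) and CA9 (0.178), and of these SLC25A20 and DHRS3 also passed the threshold (log2 fold changes of 1.12 and 1.01, adjusted p = 0.003 and 0.0195 from edgeR). The pattern compared holds the difference between the groups, so the fold changes of these genes follow in part from their selection.

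The other genes of the pathway were taken from 9 lists with 98 genes, which were chosen with earlier results of these data known. Of these, 91 were tested, 10 rose and 14 fell, against 6.55% and 7.65% of all genes tested. Of the other MAPK phosphatases, DUSP8, which acts mainly on JNK and p38, rose from 1.52 ± 0.172 to 3.02 ± 0.418 CPM (SD, n = 3; log2 fold change 0.98, standard error 0.25, adjusted p = 0.0312 from edgeR). The other 4 did not pass, with log2 fold changes of −0.24 for DUSP2, 0.50 for DUSP9, 0.17 for DUSP10 and −0.05 for DUSP16. Of the atypical dual-specificity phosphatases, which lack the kinase-binding part of the others, 9 of 14 were tested and 1 fell, DUSP23, from 68.4 ± 7.90 to 48.8 ± 4.98 CPM (SD, n = 3; log2 fold change −0.49, adjusted p = 0.0246 from edgeR). DUSP8, at a mean below 1 FPKM, was left out of the limma fits by their filter on level. It did not pass without any one of the siControl replicates, siDAB2IP replicate 1 or siDAB2IP replicate 3. DUSP23 did not pass without siControl replicate 1 or 2 or siDAB2IP replicate 1. The 8 atypical phosphatases that did not pass ranged from −0.30 (DUSP12) to 0.23 (DUSP19), with DUSP3, DUSP11, DUSP14, DUSP18, DUSP22 and DUSP28 between them. SPRY3 and SPRED3 were at low levels and had log2 fold changes of 0.06 and 0.11.

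Among 17 other genes commonly induced by ERK, 7 rose and 2 fell, against 6.55% and 7.65% of all genes tested. The median log2 fold change of the list was 0.37. The number that rose was 6 to 8 and the number that fell 2 across all alternatives run. ETV4, which encodes an ETS transcription factor and is a known target of the repressor CIC, was at 22.2, 21.0 and 25.6 CPM in siControl and 44.5, 45.6 and 25.8 CPM in siDAB2IP (log2 fold change 0.75, adjusted p = 0.034 from edgeR). Its replicate 3 was only just above the controls. ETV4 and CCND1 overlap DHX8 and LTO1 on the opposite strand, and the mean count of DHX8 was above the count of ETV4 in every library. ETV5 was at 26.5, 26.7 and 26.5 CPM and at 34.4, 29.5 and 21.2 CPM, and PHLDA1 at 100.2, 111 and 105 CPM and at 148, 159 and 102 CPM, and neither passed (adjusted p = 0.754 and 0.127 from edgeR). FOSL1, an AP-1 subunit whose mRNA follows sustained ERK activity, was at 19.6, 18.7 and 23.5 CPM and at 31.3, 41.9 and 36.2 CPM (log2 fold change 0.83, adjusted p = 0.00636 from edgeR). CCND1, EPHA2, IER3, LIF and PLAUR also rose, by 0.81 to 1.71 on the log2 scale, and the immediate-early genes EGR1 and FOS fell. Within siDAB2IP, replicate 3 was the lowest for EGR1 (10.4 CPM against 33.1 and 33.6) and FOS (17.5 CPM against 46.3 and 34.3), as it was for DUSP1, DUSP5, DUSP6, DUSP7, SPRY2, SPRY4 and SPRED2 among the members. It was the highest for CCND1 (339 CPM against 251 and 322), EPHA2 (716 CPM against 589 and 675) and LIF (33.2 CPM against 23.1 and 23.9), and for the member DUSP4.

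Among other inhibitors of the pathway, 12 were listed and 10 were tested, with a median log2 fold change of −0.43. Of all genes tested, 6.55% rose and 7.65% fell. Of these 10, 0 rose (1 at an unadjusted p under 0.05 from edgeR, 0 with DESeq2) and 5 fell. These 5 were ERRFI1, a feedback inhibitor of the EGF receptor, at 170 ± 8.18 and 115 ± 19.5 CPM (SD, n = 3; log2 fold change −0.56), LRIG1, which promotes receptor degradation, at 55.4 ± 4.46 and 27.7 ± 11.2 CPM (SD, n = 3), IL17RD, an inhibitor of fibroblast growth factor signaling (−0.82), the ubiquitin ligase gene CBL (−0.53) and NF1, which encodes neurofibromin, the partner of the SPRED proteins (−0.45). The largest adjusted p among them was 0.0294 (edgeR). With the replicate block the same number fell and 1 rose, RASA1, which encodes a RasGAP (adjusted p = 0.036 from edgeR), and 1 rose as well with library size only. The number that fell was 1 with limma and without siControl replicate 2 or 3, 2 without siControl replicate 1, and 3 without siDAB2IP replicate 1. IL17RD was left out of limma by its filter, a mean of at least 1 FPKM. NF1, CBL, LRIG1 and ERRFI1 overlap genes on the opposite strand that had counts of their own, and the strand setting of the counting is not given in the sources used here.

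Of the 23 genes of the Ras-ERK cascade, 2 rose and 2 fell (against 6.55% and 7.65% of all genes tested), and the median log2 fold change was −0.13. Leaving out 1 library gave 0 (without siControl replicate 2 or 3) to 4 (without siDAB2IP replicate 3) that rose and 1 to 2 that fell, limma gave 1 and 0, and the replicate block gave 3 and 3. KSR1 and BRAF, which fell with edgeR, were left out of limma by its filter (a mean of at least 1 FPKM). MAP2K1, which encodes the kinase MEK1, rose from 60.2 ± 6.09 to 91.6 ± 16.7 CPM, and the Ras relative MRAS from 5.03 ± 0.722 to 10.3 ± 3.23 CPM (SD, n = 3; log2 fold changes 0.61 and 1.03, adjusted p = 0.0198 and 0.0196 from edgeR). KSR1, a scaffold for RAF and MEK, fell from 14.8 ± 0.836 to 7.17 ± 2.19 CPM, and BRAF fell from 22.0 ± 0.713 to 16.5 ± 0.403 CPM (SD, n = 3; log2 fold changes −1.04 and −0.42, adjusted p = 0.0128 and 0.0415 from edgeR). BRAF and MAP2K1 overlap NDUFB2 and SNAPC5 on the opposite strand. Of the 11 JNK and p38 kinases and their activators, which some of the DUSP proteins also act on, 0 passed with edgeR or DESeq2 (0 up and 2 down at an unadjusted p under 0.05, and 1 up and 1 down with the replicate block), with a median of −0.03.

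The 10 transcription factor genes whose products are known to act on the members had a median log2 fold change of −0.06. Of these, 3 fell and 0 rose (1 at an unadjusted p under 0.05 from edgeR, 0 with DESeq2), against 7.65% and 6.55% of all genes tested. With the replicate block 4 fell and 1 rose, with ELK1 (adjusted p = 0.049 from edgeR) added to the first and ELK3 (adjusted p = 0.0351 from edgeR) to the second. ETS2 was at 171, 180 and 139 CPM in siControl and at 90.5, 70.3 and 43.3 CPM in siDAB2IP (log2 fold change −1.26, adjusted p = 0.00662 from edgeR). ETS1 (−0.70) and ELK4 (−0.63) fell as well (adjusted p at most 0.00998 from edgeR), and CIC, a repressor of several members, was at 0.06 (adjusted p = 0.829 from edgeR). Of 4 genes for factors that destabilize or protect mRNAs with AU-rich elements, ZFP36 fell (log2 fold change −0.48, adjusted p = 0.0167 from edgeR) and the other 3 did not pass.

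**Figure D4:**
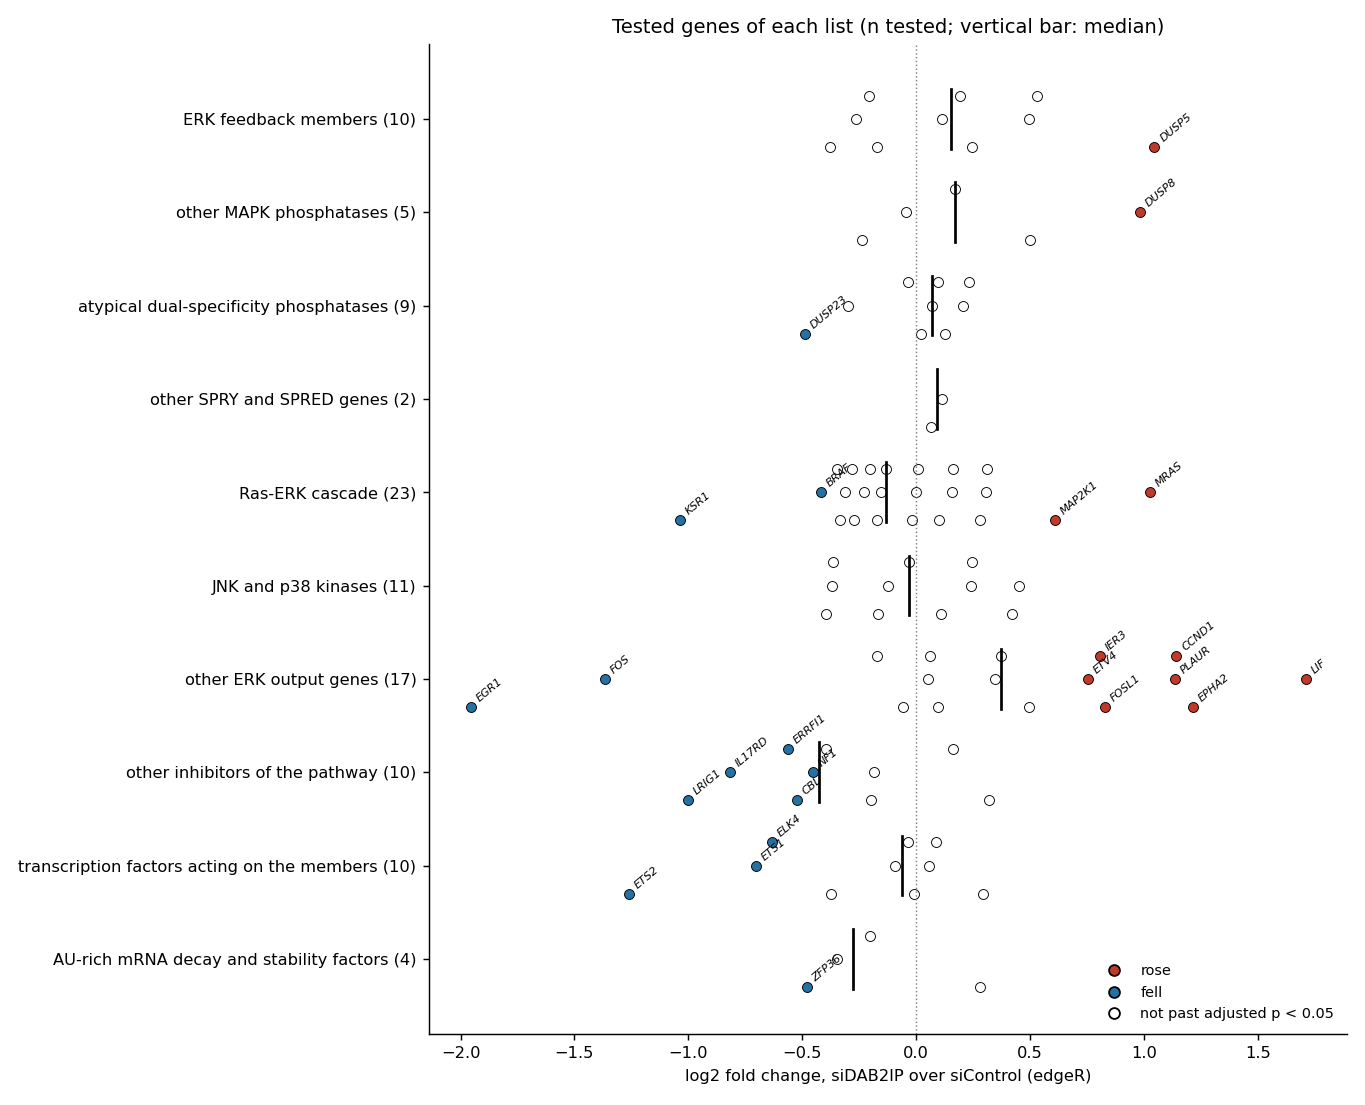
Log2 fold change of siDAB2IP over siControl (x axis, edgeR) for every tested gene of the ERK feedback set and of 9 further lists (rows, with the number tested), where filled points passed an adjusted p under 0.05 and bars are medians. The 10 ERK feedback genes straddle 0 with a median of 0.15, other ERK output genes reach from −1.95 (EGR1) to 1.71 (LIF), and the 5 other inhibitors that passed are all below 0.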

How the data were processed

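RNA-Seq of 6 MCF10A libraries, 3 siControl and 3 siDAB2IP, was used. Libraries were prepared and sequenced by Novogene (paired-end, NovaSeq). The submitters' processing notes name STAR 2.6.1d, featureCounts 1.5.0-p3, DESeq2 1.20.0, edgeR 3.24.3 and the build hg38, without their settings. The authors deposited whole-number counts per gene without normalization, and FPKM values, for which the authors' division of counts was by gene length and by a scaled library total (98.9% to 104.7% of all counts).

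The count table was fitted with edgeR 4.0.16 under R 4.3.3 (filterByExpr, TMM, glmQLFit, glmQLFTest), and p-values were adjusted over 15430 genes. Standard errors and intervals were derived from the F statistic. FPKM was used to compare levels between genes. Exact permutation tests were two-sided. Alternatives were DESeq2 1.42.0, its size factors in edgeR, library size only, other filters, the replicate block, limma 3.58.1 on log2(FPKM + 1) and log2(FPKM + 0.1), leaving out each library, and, added after the data had been seen, leaving out replicate 3 of both groups. The limma fits were limited to the 12412 genes with a mean of at least 1 FPKM. Same-numbered libraries correlated at 0.26, 0.15 and 0.25 after subtraction of the group means, and others at −0.28 to 0.02. The numbers were therefore taken to pair the libraries, which is an inference, since the labels do not say what they stand for. The subtraction also makes these correlations depend on each other. The steps were also run on simulated counts without replicate pairing, which checked the steps and not the calls reported here.

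The members and lists were chosen with earlier results of these data known. Genes named in the text were the members, DAB2IP, the tested DUSP, SPRY and SPRED genes, in every other list the genes that passed (the 6 with the smallest p where there were more), and the 3 genes most like each member that passed. FOSL1, ETV4, FOS, ETV5, PHLDA1, ELK1, ELK3, RASA1, CIC and the cell type markers fall outside this rule and were named after their values were seen.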

Additional observations from a re-analysis of the deposited data

How the results depend on the processing

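DUSP5 kept its direction and its side of the threshold in all 15 alternatives run, with log2 fold changes from 0.84 to 1.20, and DAB2IP kept both as well. The number of members that rose was 2 in place of 1, and the number that fell 1 in place of 0, with DESeq2, without a filter on low counts, with the replicate block and without replicate 3 in both groups, where the genes added were DUSP4 and DUSP1. When 1 library was left out, 1 to 2 members rose (DUSP4 added without siDAB2IP replicate 1, DUSP7 added without siDAB2IP replicate 3) and 0 fell. The block changed no other call among the members. SPRED2 ranged from −0.0023 (without siDAB2IP replicate 1) to 0.27 (without siDAB2IP replicate 3) when 1 library was left out, and without replicate 3 in both groups DUSP6 was at 0.050 and SPRY2 at 0.065 on the log2 scale, and these values of DUSP6 and SPRY2 and the lowest of SPRED2 are opposite in sign to those reported. The other SPRY and SPRED values, and those of DUSP1, DUSP4 and DUSP7, kept their direction in every alternative run. Of the 91 pathway genes tested, 10 rose and 14 fell, against 6.55% and 7.65% of all genes tested. When 1 library was left out, 6 to 13 rose and 8 to 16 fell, with the fewest that rose without siControl replicate 2 and without siControl replicate 3 (6 each), and 9, 8 and 9 that fell without siControl replicates 1, 2 and 3. Limma on log2(FPKM + 1) and on log2(FPKM + 0.1) gave 8 that fell each, and the replicate block gave 14 that rose and 17 that fell. Limma was run on 12412 genes with a mean of at least 1 FPKM, so KSR1, BRAF, IL17RD and DUSP8 could not be called by it. The cause of the other differences was not tested, beyond the fewer samples in fits without a library. With 3 libraries a group and standard errors of 0.10 to 0.22, changes of the size seen for SPRY4, SPRED1 or SPRED2 were not detectable.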
